A study of Mus musculus with 8 samples.

Results

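The Prss genes studied here encode serine proteases of the trypsin type that are made mainly in testis. The 10 genes Prss21, Prss37, Prss41, Prss42, Prss43, Prss44, Prss46, Prss50, Prss51 and Prss55 were taken by symbol from the 23983 genes of the deposited table, and all 10 were found. Total RNA was sequenced from pieces of whole testis of wild-type C57BL/6J mice. The groups are the ages d12, d16 and d24 after birth (p.p.) and adult testis, with no treatment and 1 library per age. No spread between animals can therefore be given, and no test between ages was made.

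A trypsin-type protease cuts proteins with a catalytic triad of histidine, aspartate and serine, and several testis members have lost a residue of this triad. Prss37 lacks an intact triad, and Prss50, also called Tsp50, has threonine in place of the catalytic serine. Proteases of germ cells act in meiosis, in the acrosome or on the sperm surface. The surface protein ADAM3, needed for sperm to enter the oviduct, is not matured normally in males without Prss37 or Prss55. In the first wave of spermatogenesis, germ cells advance together through meiosis into haploid spermatids, so each later age adds cell types that the earlier testis lacks. In whole testis, fewer cells of a type and less RNA per cell cannot be told apart.

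The members lie in 4 places of the genome (GRCm38). On chromosome 9, Prss42 (110797248 to 110803744), Prss44 (110813919 to 110817999), Prss43 (110826690 to 110831507), Prss46 (110844506 to 110856522) and Prss50 (110857964 to 110864629) follow each other on the plus strand, with Prss45, which is no member, between Prss43 and Prss46. On chromosome 14, Prss55 (64075435 to 64085449, minus strand) and Prss51 (64085525 to 64097674, plus strand) point away from each other, with 75 bp between them. On chromosome 17, Prss41 (23836785 to 23844219, minus strand) lies 23663 bp from Prss21 (23867883 to 23873121, plus strand). Prss37 lies apart from the others on chromosome 6 (40514820 to 40519535, minus strand). The curated transcripts of the members have 5 to 7 exons and coding sequences of 669 to 1320 bases. Over the 45 pairs of members, the coding sequences were 46.6% identical in the median, from 35.5% to 64.3%, with Prss21 and Prss41 the closest pair. No 50 bp stretch of a member's curated transcript occurs in a curated transcript of another gene.

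Promoters of 6 members are in the RefSeq table of GRCm38.p6, each as 300 bases from 250 before to 50 after the start of a curated transcript. Prss43, Prss44, Prss51 and Prss55 have no entry. The Prss42 window lies wholly within the gene span given above. The windows of Prss21, Prss37 and Prss41 lie partly within theirs, with transcript starts inside the span. Positions in these windows are counted from the transcript start and not from the end of the span. The Prss21 matches given below therefore lie within its span. The 4 windows printed here cover the different ages of the highest level, with Prss50 highest at d16, Prss42 at d24 and Prss46 and Prss37 in adult testis. They are written 5′ to 3′ on the strand of the gene, and capitals mark the AACTG motif, the core of MYB sites, and the CCAAT box, on either strand, where ATTGG is CCAAT read on the other strand.
Prss50, chr9:110857714-110858013, plus strand: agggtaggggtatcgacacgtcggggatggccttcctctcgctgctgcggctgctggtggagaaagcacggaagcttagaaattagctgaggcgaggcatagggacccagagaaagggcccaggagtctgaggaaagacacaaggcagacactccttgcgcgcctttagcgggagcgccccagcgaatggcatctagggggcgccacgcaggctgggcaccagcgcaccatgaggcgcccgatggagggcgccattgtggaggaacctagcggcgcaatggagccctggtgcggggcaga
Prss42, chr9:110797935-110798234, plus strand: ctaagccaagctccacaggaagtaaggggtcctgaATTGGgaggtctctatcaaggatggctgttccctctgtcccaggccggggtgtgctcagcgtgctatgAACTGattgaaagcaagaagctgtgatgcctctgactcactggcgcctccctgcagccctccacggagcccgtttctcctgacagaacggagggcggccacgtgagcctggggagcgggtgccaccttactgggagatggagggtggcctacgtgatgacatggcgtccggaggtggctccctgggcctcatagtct
Prss46, chr9:110844256-110844555, plus strand: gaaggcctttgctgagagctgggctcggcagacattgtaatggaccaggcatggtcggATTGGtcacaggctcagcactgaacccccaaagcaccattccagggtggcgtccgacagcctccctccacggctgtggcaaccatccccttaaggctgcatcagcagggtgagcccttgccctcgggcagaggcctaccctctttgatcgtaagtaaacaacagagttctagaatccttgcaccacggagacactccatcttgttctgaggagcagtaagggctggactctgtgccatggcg
Prss37, chr6:40519459-40519758, minus strand: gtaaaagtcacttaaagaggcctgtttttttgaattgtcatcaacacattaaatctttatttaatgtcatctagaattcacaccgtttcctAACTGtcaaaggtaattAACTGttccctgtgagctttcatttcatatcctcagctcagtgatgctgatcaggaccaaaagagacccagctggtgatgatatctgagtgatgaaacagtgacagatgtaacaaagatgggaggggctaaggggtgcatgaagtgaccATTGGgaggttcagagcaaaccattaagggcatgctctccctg

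The Prss50 window had 64.0% G and C and 21 CpG dinucleotides, against medians of 52.7% and 7 over the 32851 windows of the table. Prss42 had 60.7% and 12 CpG, Prss46 57.7% and 9, and Prss37 41.7% and 1. The windows of Prss21 and Prss41, which are not printed here, had 12 and 10 CpG. The early member thus had the most and Prss37, the member with the highest adult level, the fewest CpG of the 6 windows. Between these extremes, Prss21, highest in adult testis, had as many CpG as Prss42, highest at d24. A link between CpG and the age of the highest level was not tested. AACTG was found in the windows of Prss37 (first bases at -159 and -142 from the start) and Prss42 (-147), and 44.8% of all windows hold it. CCAAT was found in Prss37 (7 bases after the start), Prss42 (-215), Prss46 (-192) and Prss21 (-57), against 37.4% of all windows. TATAA was found in Prss21 (-123) alone of the 6, against 24.9%. Neither the cAMP response element TGACGTCA (1.79% of all windows) nor its shorter form TGACG (20.8%), which lies within it, occurs in any of the 6 windows. Both strands were searched, and the motifs are matches of letters only.

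Levels are given in FPKM, fragments per kilobase of transcript after scaling for library size, so they can be compared between genes. In these files FPKM times transcript length is a whole multiple of the value of 1 fragment, and the fragments behind each value were recovered from this. For a transcript of 1 kb, 1 fragment was worth 0.0799 FPKM in the d12 library and nearly the same in that of d16. It was worth 0.0455 FPKM in the d24 library and 0.112 FPKM in the adult library. These values follow the scaling for library size and are not the depth itself. Over the genes whose fragments could be recovered, the libraries held 6774880 (d12), 7101370 (d16), 17401300 (d24) and 8752110 (adult) fragments. The d24 library thus held the most and the d12 library the fewest. Levels are followed by exact 95% Poisson intervals and ratios by exact 95% Clopper-Pearson intervals, which cover counting error only and not differences between animals. A gene without fragments is given the level of 3 fragments as its limit. For Prss50, Prss51 and Prss55, which have several transcripts of similar length, the fragments are approximate.

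Somatic cell markers were found in every library, and most of those of spermatids were low before d24. The 6 Sertoli cell markers, of which Amh was listed at 0 in the adult, had a median of 16.2 FPKM at d12 and 8.10 in adult testis, and the 6 Leydig cell markers of 18.2 and 54.1 FPKM. The 6 pachytene spermatocyte markers had medians of 1.90, 69.5, 207 and 300 FPKM from the youngest to the oldest testis. The 6 round spermatid markers had medians of 0.514, 0.660, 99.2 and 259 FPKM, with Catsper1 listed at 0 at d12 and d16 and Acrv1 at d16. Spata16 went the other way, with 57.5 FPKM at d16, 15.1% of its d24 level and above every member at that age. The 6 elongating spermatid markers had 2.28, 0.354, 489 and 4070 FPKM, so their median was higher at d12 than at d16. The FPKM values of all genes sum to 283580 at d12 and 659202 in adult testis, and some ratios are therefore given under other scalings too. Of these, the median ratio scaling had factors from 0.981 at d16 to 1.02 in the adult. It left the values nearly as deposited and is hardly a separate check.

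**Figure D1:**
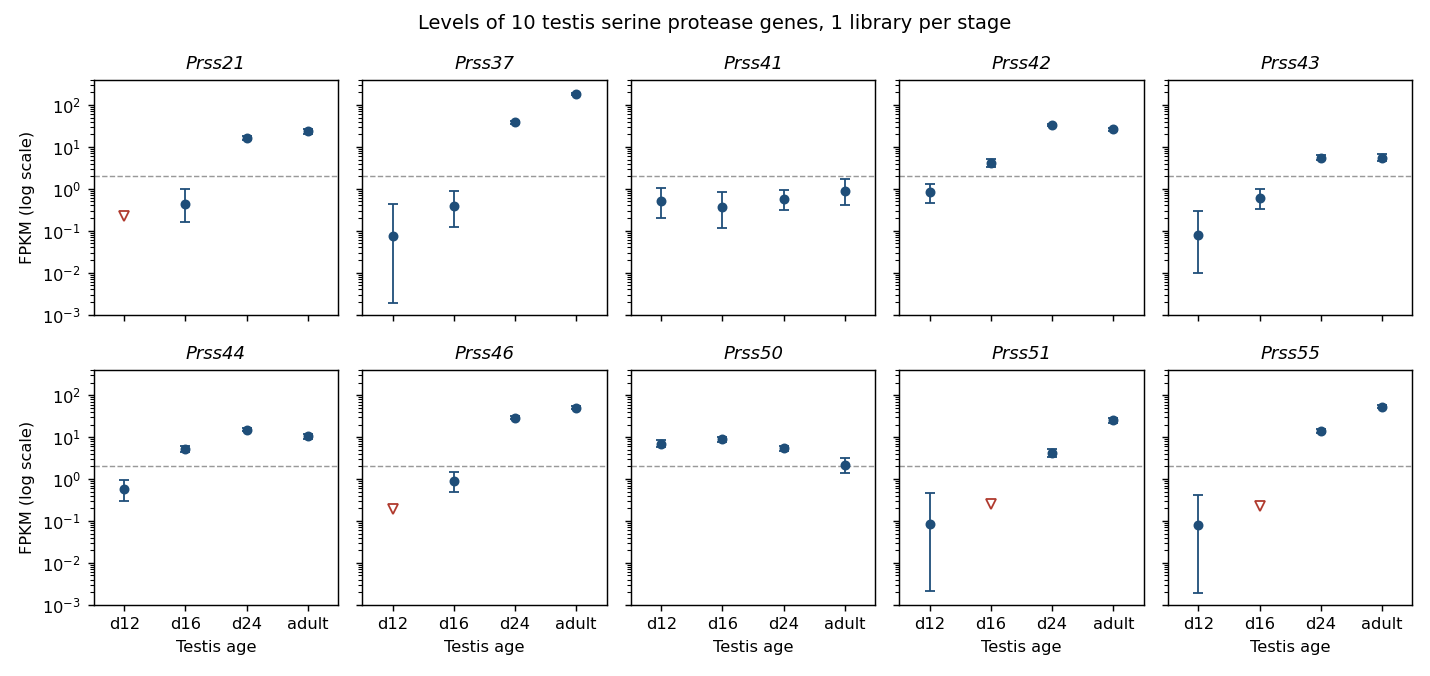
Level of each of the 10 Prss genes (FPKM, log scale) against testis age, with 1 library per age. Points are FPKM with exact 95% Poisson intervals, open triangles are the value of 3 fragments where none was found, and the dashed line marks 2 FPKM. Prss50 lay above the line at every age and Prss41 below it at every age, and the 8 other genes crossed it at d16 or d24.

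Prss50 was the one member already above 2 FPKM at d12. It stood at 6.97 FPKM (5.81 to 8.33, 124 fragments) at d12, 8.80 (7.48 to 10.3, 156 fragments) at d16, 5.41 (4.64 to 6.31, 169 fragments) at d24 and 2.16 (1.41 to 3.11, 27 fragments) in adult testis. Its level was therefore highest at d16 and lowest in the adult, the reverse of most members. The d16 to d12 ratio was 1.26 (0.989 to 1.61), which does not exclude equal levels. The d24 level was 0.615 of the d16 level (0.493 to 0.771), and the adult level was 0.399 of the d24 level (0.252 to 0.593). Both intervals lie below 1, and the adult ratio was 0.286 with each library set to the same FPKM sum, 0.338 with upper quartiles and 0.408 with the median ratio. The d16 level was 163% of the d24 level. Among markers with at least 2 FPKM at d24, this lay within the ranges of 4 cell types, the early meiotic spermatocytes (47.9% to 191%, 6 genes), the spermatogonia (151% to 259%, 4 genes), the Sertoli cells (119% to 201%, 5 genes) and the Leydig cells (30.0% to 269%, 6 genes), so the value does not point to one of them. The adult to d24 ratio of 0.399 lay below the ranges of all 4. In the same order these were 0.708 to 1.33, 0.538 to 0.835, 0.450 to 0.974 and 1.36 to 13.1. The counting interval of the ratio (0.252 to 0.593) reaches into the ranges of the spermatogonia and the Sertoli cells. Markers under 2 FPKM at d24 are left out of these ranges, and of them Amh had a ratio of 0, Sall4 of 0.413 and Gfra1 of 2.05. Prss50 is therefore not shown to lie outside these cell types.

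Prss42 and Prss44 were the members that first reached 2 FPKM at d16. Prss42, called Tessp2, is known to be needed for germ cells to survive meiosis. It stood at 0.822 FPKM (0.470 to 1.33, 16 fragments) at d12, 4.22 (3.36 to 5.24, 82 fragments) at d16, 34.0 (32.1 to 36.0, 1161 fragments) at d24 and 26.0 (23.4 to 28.9, 361 fragments) in adult testis. It was 5.13 times higher at d16 than at d12 (2.98 to 9.40), 8.06 times higher at d24 than at d16 (6.44 to 10.2), and in adult testis 0.766 of the d24 level (0.679 to 0.863). Prss44, called Tessp4, had 0.565 FPKM (0.301 to 0.966, 13 fragments) at d12, 5.27 (4.37 to 6.29, 121 fragments) at d16, 14.9 (13.7 to 16.2, 602 fragments) at d24 and 10.4 (8.93 to 12.1, 171 fragments) in the adult. Both genes were thus highest at d24. The steps of Prss44 were 9.32-fold (5.25 to 18.0), 2.83-fold (2.33 to 3.47) and 0.6998-fold (0.587 to 0.831). At d16 the Prss42 to Prss44 ratio was 0.801 (0.598 to 1.07), and at d24 it was 2.28 (2.06 to 2.52), so Prss44 had come closer to its d24 level by d16 (35.3% of it) than Prss42 (12.4%). Of the pachytene markers, d16 levels ranged from 3.04% to 46.5% of the d24 level, with a median of 19.7%.

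Prss43, called Tessp3 and, like Prss42, needed for the survival of meiotic germ cells, followed at a lower level. It stood at 0.0802 FPKM (0.00970 to 0.289, 2 fragments) at d12, 0.602 (0.337 to 0.992, 15 fragments) at d16, 5.51 (4.83 to 6.24, 241 fragments) at d24 and 5.57 (4.52 to 6.78, 99 fragments) in the adult. The d24 and adult levels overlapped in their intervals, with a ratio of 1.01 (0.793 to 1.28). This ratio fell below 1 under 2 other scalings, at 0.726 with equal FPKM sums and 0.857 with upper quartiles. At d16 the gene had 10.9% of its d24 level, close to the 12.4% of Prss42.

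Prss46, Prss21 and Prss37 were below 1 FPKM before d24. Prss46, a protease gene of the chromosome 9 cluster, had no fragment at d12 (limit 0.191 FPKM), 0.891 FPKM (0.487 to 1.495, 14 fragments) at d16, 29.0 (27.03 to 31.1, 801 fragments) at d24 and 50.2 (46.2 to 54.6, 563 fragments) in adult testis. It was 32.6 times higher at d24 than at d16 (19.3 to 59.8) and 1.73 times higher in the adult than at d24 (1.55 to 1.93). Prss21, or testisin, which is held to the sperm surface by a lipid anchor, had no fragment at d12 (limit 0.222 FPKM), 0.446 FPKM (0.164 to 0.970, 6 fragments) at d16, 16.6 (15.0 to 18.3, 392 fragments) at d24 and 23.8 (20.9 to 27.2, 229 fragments) in the adult. Both had about 3% of their d24 level at d16, namely 3.07% for Prss46 and 2.69% for Prss21. Prss21 was 37.2 times higher at d24 than at d16 (16.9 to 102), and 1.44 times higher in the adult than at d24 (1.22 to 1.70). With equal FPKM sums the last ratio was 1.03.

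Prss37 had the highest level of the members at d24 and in adult testis. It stood at 0.0761 FPKM (0.00193 to 0.424, 1 fragment) at d12, 0.381 (0.124 to 0.890, 5 fragments) at d16, 38.3 (35.8 to 40.9, 882 fragments) at d24 and 186.2 (177.6 to 195.2, 1742 fragments) in the adult. The level was 100.4 times higher at d24 than at d16 (42.9 to 309.9) and 4.87 times higher again in adult testis (4.49 to 5.28). With other scalings the adult to d24 ratio was 3.49 (equal FPKM sums), 4.12 (upper quartiles) and 4.97 (median ratio, nearly as deposited), above 1 in each. The d16 level was 0.996% of the d24 level. In both measures Prss37 lay on the far side of Prss46 and Prss21, with less at d16 and more in the adult relative to d24. The d16 levels rest on 5 (Prss37), 14 (Prss46) and 6 (Prss21) fragments. The intervals of the d24 to d16 ratio overlap (42.9 to 309.9, 19.3 to 59.8 and 16.9 to 102), so the order at d16 is uncertain.

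Prss55 and Prss51, the pair with 75 bp between their 5′ ends, had no fragment at d16. Prss55, a sperm protease held to the membrane by a lipid anchor, had 0.0787 FPKM (0.00188 to 0.415, 1 fragment) at d12, none at d16 (limit 0.224 FPKM), 13.9 FPKM (12.4 to 15.5, 327 fragments) at d24 and 53.3 (48.8 to 58.1, 510 fragments) in adult testis. Prss51 had 0.0833 FPKM (0.00216 to 0.474, 1 fragment) at d12, none at d16 (limit 0.256 FPKM), 4.27 FPKM (3.43 to 5.26, 88 fragments) at d24 and 25.1 (21.8 to 28.8, 210 fragments) in adult testis. At d24 Prss55 was at least 62.0-fold and Prss51 at least 16.7-fold higher than at d16, against the limit of 3 fragments in the d16 library. The adult level was 3.84 times the d24 level for Prss55 (3.34 to 4.43) and 5.89 times for Prss51 (4.56 to 7.63). The ratio of Prss55 to Prss51 was 3.24 at d24 (2.56 to 4.16) and 2.12 in the adult (1.80 to 2.504), 2 intervals that do not overlap. The single d12 fragments of Prss37, Prss55 and Prss51 came from the library in which the elongating spermatid markers had a higher median than at d16 (2.28 against 0.354 FPKM), and the part of this in them was not tested.

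Prss41, called Tessp1, stayed below 2 FPKM throughout. It stood at 0.503 FPKM (0.202 to 1.04, 7 fragments) at d12, 0.360 (0.117 to 0.840, 5 fragments) at d16, 0.573 (0.313 to 0.962, 14 fragments) at d24 and 0.908 (0.415 to 1.72, 9 fragments) in adult testis. All 4 intervals overlap, and a change between ages was not detectable at this depth. The neighbouring ratios were 0.716 (0.179 to 2.62), 1.59 (0.542 to 5.65) and 1.58 (0.605 to 3.93). Prss41 and its neighbour Prss21, the closest pair in sequence, thus differed in the 2 later libraries.

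**Figure D2:**
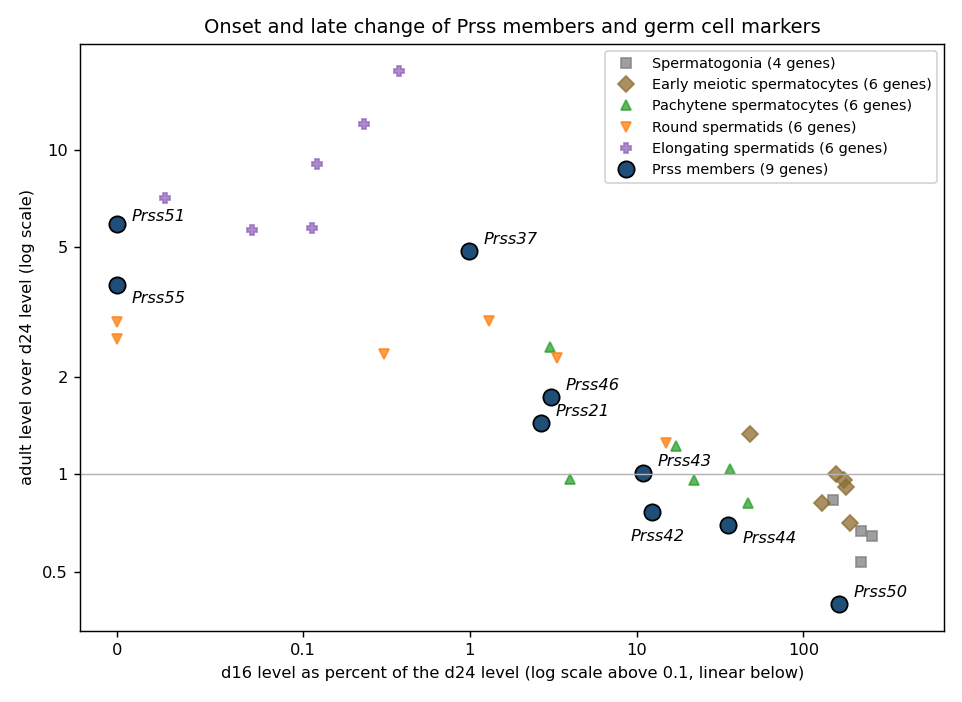
Level at d16 as percent of the d24 level (x, log scale above 0.1 and linear below) against the adult level over the d24 level (y, log scale), for Prss members and germ cell markers with at least 2 FPKM at d24. Each point is 1 gene. Prss50 lay beyond 100% on the x axis and at 0.399 on the y axis, Prss42, Prss43 and Prss44 lay between 10.9% and 35.3%, and Prss37, Prss51 and Prss55 lay at or below 0.996% and above 3.8 on the y axis.

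The later members were also read beside the spermatid markers. Over the 6 round spermatid markers the adult to d24 ratio ranged from 1.25 to 2.97 (median 2.48), and over the 6 elongating spermatid markers from 5.67 to 17.5 (median 8.06). Prss46 (1.73) and Prss21 (1.44) lay within the first range, Prss51 (5.89) within the second, and Prss37 (4.87) and Prss55 (3.84) between them. The ranges of other cell types also hold these values, with 0.816 to 2.47 over the 6 pachytene markers, which takes in Prss46 and Prss21, and 1.36 to 13.1 over the 6 Leydig cell markers, which takes in all 5 genes. The d16 level was 0 to 15.1% of the d24 level over the round and 0.0259% to 0.377% over the elongating spermatid markers, so of these 2 ranges the 0.996% of Prss37 lay within the former. That share rests on 5 fragments at d16, and its counting interval reaches into the elongating spermatid range as well. These are positions of single genes beside 6 markers each, and no cell type was assigned from them.

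Set against all genes of the table, most members entered at d24. The study's limit of expression is 2 FPKM. Of the 10 members, 1 had reached it at d12 (44.9% of all genes), 2 first reached it at d16 (3.55% of all genes), 6 at d24 (6.30%) and 0 in adult testis (1.98%). The 6 of d24 were Prss21, Prss37, Prss43, Prss46, Prss51 and Prss55. At d24 and in the adult 9 of 10 members were at or above 2 FPKM, against 49.0% and 49.7% of all genes, and at d12 1 of 10, against 44.9%.

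Changes between neighbouring ages were also counted at a limit of 2-fold, on log2 values with 0.1 FPKM added. From d12 to d16, 6 members were at least 2-fold higher (9.86% of all genes) and 0 lower (5.88%). The 6 were Prss21, Prss37, Prss42, Prss43, Prss44 and Prss46, and of these the interval of the ratio included 1 for Prss37. With 1 FPKM added instead, 2 members were at least 2-fold higher (5.15% of all genes), and the members' median log2 change was 0.446. From d16 to d24, 8 members were higher (21.5% of all genes) and 0 lower (8.05%), the exceptions being Prss41 and Prss50. From d24 to adult testis, Prss37, Prss51 and Prss55 were at least 2-fold higher, 3 of 10 against 11.1% of all genes, and Prss50 was lower, 1 of 10 against 3.86%. The median log2 change of the members was 1.71, 3.94 and 0.55 over the 3 steps, and that of all genes was 0 at each. With equal FPKM sums, 18.4% of all genes were higher and 25.5% lower at d24 than at d16, beside 7 and 1 members, and 7.93% were higher and 12.6% lower in the adult than at d24, beside 3 and 1 members. With the same scaling the median of all genes from d24 to adult moved to -0.305 and that of the members to 0.108, so the members' median remained above that of all genes.

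By the intervals of single genes, the last step divided the members. The same rule was read over the 17516 genes whose fragments could be recovered. In adult testis 5 were above their d24 level (Prss21, Prss37, Prss46, Prss51 and Prss55), against 21.6% of these genes, and 3 were below it (Prss42, Prss44 and Prss50), against 17.6%. The intervals of Prss41 and Prss43 included 1, and the ratio of Prss21 was 1.03 with equal FPKM sums. From d16 to d24, 8 were above (29.3% of these genes), Prss50 was below (23.4%) and Prss41 included 1. From d12 to d16, 5 were above (Prss21, Prss42, Prss43, Prss44 and Prss46), against 18% of these genes, and none was below, against 20.4%.

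The order of the levels changed from age to age. At d12 Prss50 stood apart, and the intervals of all other neighbours in the order overlapped. At d16 Prss50 was followed by Prss44 and Prss42, whose intervals overlapped with each other but not with that of Prss50 or of Prss46, the next in order. At d24 Prss37 and Prss42 led with overlapping intervals, then came Prss46, apart from both neighbours, and then Prss21, Prss44 and Prss55, each overlapping the next. Prss43, Prss50 and Prss51 followed as a second overlapping group, with Prss41 last. In adult testis Prss37 led, Prss55 and Prss46 overlapped, Prss42, Prss51 and Prss21 overlapped, and Prss44, Prss43 and Prss50 followed, with Prss50 and Prss41 overlapping at the end.

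**Figure D3:**
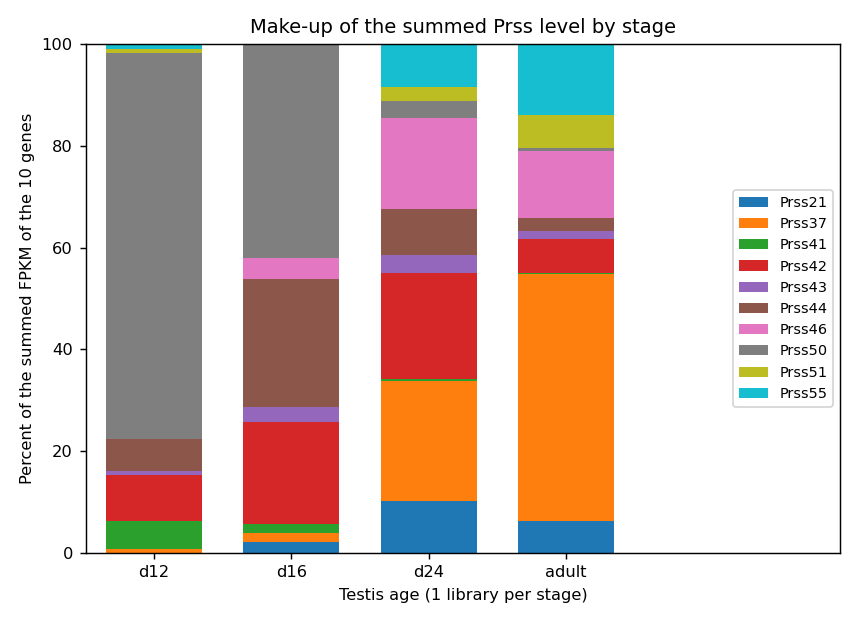
Share of each member in the summed FPKM of the 10 genes (percent) at each age, with 1 library per age. Prss50 held 75.9% at d12 and 0.562% in adult testis, and Prss37 held 0.829% and 48.5%.

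Over the 4 ages, the summed level of the 10 genes was 9.18, 21.0, 162.4 and 383.8 FPKM. At d12 Prss50 made up 75.9% of the sum. At d16 it held 42.0%, with Prss44 at 25.1% and Prss42 at 20.1%, so these 3 genes carried most of the sum. At d24 the sum was spread more evenly, with Prss37 at 23.6%, Prss42 at 20.9%, Prss46 at 17.9% and Prss21 at 10.2%. In the adult Prss37 alone held 48.5%, followed by Prss55 with 13.9% and Prss46 with 13.1%.

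The chromosome 9 cluster held neighbours with opposite time courses. Its 6 genes, Prss45 included, span 67.4 kb. Prss46 ends 1441 bp before Prss50 begins, and both are read in the same direction. The Prss46 to Prss50 ratio was 0.101 at d16 (0.0541 to 0.175), 5.36 at d24 (4.52 to 6.35) and 23.3 in the adult (15.99 to 36.0). The order of this pair was therefore turned between d16 and d24. On the other side of Prss50, 1057 bp away, Tmie had 7.21, 5.48, 2.19 and 1.33 FPKM at d12, d16, d24 and adult, lower at each later age. Prss45 had 0.389, 9.09, 27.2 and 36.3 FPKM, and of the 6 genes Prss42 and Prss44 were highest at d24, Prss43, Prss45 and Prss46 in the adult and Prss50 at d16. The adult value of Prss43 was above its d24 value by less than counting error and was below it under the scalings by FPKM sum and by upper quartile.

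**Figure D4:**
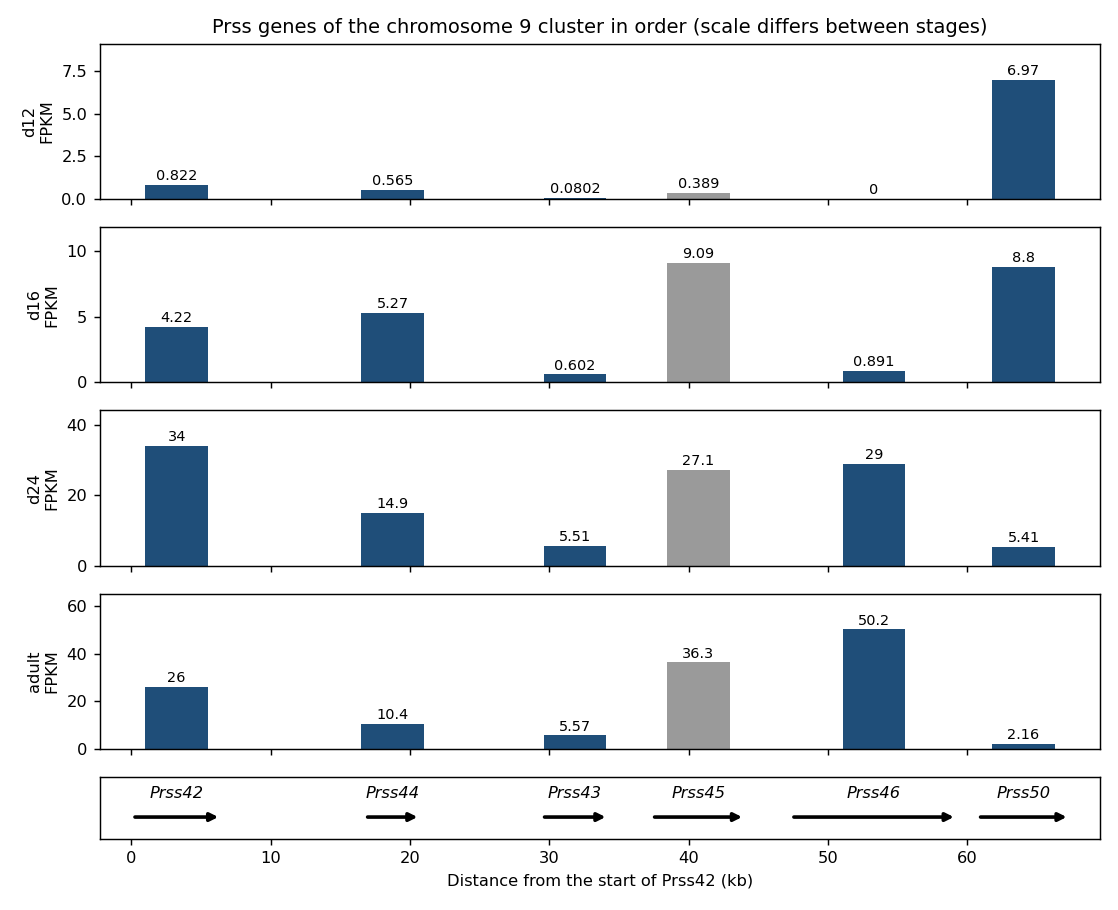
FPKM of the 6 Prss genes of the chromosome 9 cluster at each age (bars, linear axes from 0 whose scale differs between ages), placed by distance from the start of Prss42 in kb, with arrows for the gene spans and strand. Blue bars are members and the grey bar is Prss45. Prss50, at the right end, was the highest bar at d12 and the lowest in adult testis.

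At the chromosome 14 site the further protease gene Prss52 lies 6648 bp beyond Prss51. Its levels of 0, 0.0782, 23.1 and 154.0 FPKM ran like those of Prss51 and Prss55, and its adult level was 6.67 times its d24 level, against 5.89 and 3.84. The non-coding gene 4930471C04Rik, 1620 bp from Prss51, was listed at 0 at d12 and d16, at 0.579 FPKM at d24 and at 6.48 in the adult. Summed over the 3 proteases the site had 0.162, 0.0782, 41.2 and 232.4 FPKM over the 4 ages. On chromosome 17, Prss32 between Prss41 and Prss21 stayed at or below 0.164 FPKM, and Prss33, 91 bp from Prss41, at or below 0.173 FPKM, so of these 4 neighbours Prss21 alone reached 2 FPKM.

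The 28 other genes with a Prss symbol were mostly low. Of them 4, 6, 11 and 10 were at or above 2 FPKM at d12, d16, d24 and adult, against 1, 3, 9 and 9 of the 10 members. Their highest adult levels were those of Prss39 (175.5 FPKM), Prss52 (154.0 FPKM) and Prss58 (104.1 FPKM), each under 2 FPKM at d12 and d16 like Prss37. From d16 to d24, 9 of the 28 were at least 2-fold higher and 4 lower, beside 8 and 0 of the members.

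A list of 10 other serine proteases of testis, 5 of which also have a Prss symbol, was read beside the members. Acr, the acrosomal protease acrosin, had 0.348, 10.0, 93.7 and 119.8 FPKM over the 4 ages, an early course like that of Prss42, with 10.7% of the d24 level at d16. Tmprss12 had 0.651, 9.84, 21.3 and 19.1 FPKM, and Pcsk4, a convertase of the sperm surface, had 0.191, 2.48, 13.7 and 19.5 FPKM. These 3 first reached 2 FPKM at d16, as did Prss42 and Prss44. Prss39, Prss40, Prss52, Prss54 and Prss58 first reached it at d24, Klk1b24 in the adult and Tysnd1, a protease of peroxisomes, at d12. From d16 to d24, 9 of the 10 were at least 2-fold higher and none lower. In the adult 6 were at least 2-fold higher than at d24 and none lower, whereas Prss50 was lower. The median adult to d24 ratio was 2.43 over the 9 of them with 2 FPKM at d24 and 1.44 over the 9 such members.

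Inhibitors of serine proteases and partners of acrosin did not share a single course. Of the 10 genes listed, 6 were at or above 2 FPKM at d12 and 5 in the adult. Spink2, an acrosomal inhibitor, had 0.682, 86.0, 778.3 and 914.3 FPKM, and Acrbp, which binds proacrosin, had 2.73, 16.1, 221.3 and 280.7 FPKM. These were the 2 genes of the list at least 2-fold higher at d16 than at d12, and again at d24 than at d16. Serpinb6a had 121.7, 98.0, 124.2 and 178.6 FPKM, and Serpine2, a secreted inhibitor, was lower at each later age, with 3.43 FPKM at d16, 1.24 at d24 and 0.709 in the adult. The median d16 level was 79.0% of the d24 level over the 5 of them with 2 FPKM at d24, against 3.07% over the members.

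For Prss37 and Prss55, the genes of the ADAM3 pathway give the setting. Of 16 genes listed, 9, 13, 16 and 15 were at or above 2 FPKM at d12, d16, d24 and adult. Prss37 and Prss55 were below this limit at d12 and d16. The counts do not show an earlier course, since some of the list passed the limit at low levels before d24. Calr3 had 2.61, 3.02, 35.4 and 157 FPKM over the 4 ages, and Pmis2 had 2.32, 1.27, 33.0 and 141.2 FPKM. Adam3 itself had 0.177, 13.6, 262.5 and 460.5 FPKM, and had 5.18% of its d24 level at d16, against 0.996% for Prss37 and none found for Prss55. The endoplasmic chaperones Clgn (calmegin), at 13.3, 157.7, 610.6 and 554.0 FPKM, and Calr (calreticulin), between 704.7 and 883.7 FPKM, were higher than Prss37 and Prss55 at every age. Hspa4l, a heat shock protein, had 62.5, 190.9, 451.4 and 689.6 FPKM. Pdilt, a testis chaperone of ADAM3, had 0.187, 0.224, 56.4 and 152.6 FPKM and was the gene of the list with the lowest d16 level relative to d24 (0.398%). Of the 16, 8 were at least 2-fold higher at d16 than at d12, 12 at d24 than at d16 and 5 in the adult than at d24, and none was 2-fold lower in any step.

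The genes with the courses most like each member were read by the Euclidean distance over the 4 values of log2(FPKM + 0.1). These distances describe 4 libraries and carry no test. Nearest to Prss21 was Cmtm1 (0.19), to Prss37 Ccer1 (0.68), to Prss42 Pex11g (0.41), to Prss43 Gcnt3 (0.48) and to Prss44 4933412E24Rik (0.27). Nearest to Prss46 was 4921511H03Rik (0.29), to Prss50 Trim68 (0.40), to Prss51 1700047A11Rik (0.41), to Prss55 Cpxcr1 (0.27) and to the low Prss41 Scn7a (0.18). Among the members alone, Prss42 and Prss44 (1.85), Prss21 and Prss46 (1.59) and Prss51 and Prss55 (1.99) were each other's nearest, and Prss41 (4.36) and Prss50 (4.38) were the farthest from any other member.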

How the data were processed

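RNA-seq of testis at d12, d16, d24 and adult was used, with 1 library per age assigned from its label. The 4 H3K27Ac ChIP-seq samples are not analysed here. Strand-specific read pairs were mapped by the authors to GRCm38/mm10, using TopHat2 2.1.0 on bowtie 1.1.2 with RefSeq genes supplied, and 1 alignment was kept for each pair. The deposited FPKM values came from Cuffdiff (Cufflinks 2.2.1), which corrected for multi-reads and for bias but not for effective length. The scaling between libraries is not given in the sources used here.

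The members and gene lists were chosen with earlier results of these data known. Genes named are the 10 members, the genes nearest to each in course, their neighbours within 50 kb, and of each list the 3 highest in adult testis, or any of a list of up to 12 genes. Adam3, Pdilt, Calr3 and Pmis2 were added after their values were seen. Fragments were recovered from the deposited FPKM of 13304 genes with 1 curated transcript. Among values of up to 20 fragments, 91.7% to 92.3% lay within 0.05 of a whole number. At 2 FPKM, a 1 kb transcript has 25.0 fragments at d12 and 17.8 in adult testis. Where a gene had several transcripts, the mean length served if the longest was at most 1.1 times the shortest. Coding sequences were aligned in full with Biopython 1.88. Calculations used scipy 1.17.1, pandas 2.3.3, numpy 2.4.6 and python 3.11.15, and were tested on simulated data. Alternatives were thresholds of 1 and 5 FPKM, a pseudocount of 1 FPKM, a fold limit of 4, a filter on mean levels under 1 FPKM, and 3 rescalings of the libraries. Of the rescalings, that by the median ratio left the values nearly as deposited. Protein sequences were not used here.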

Additional observations from a re-analysis of the deposited data

How the results depend on the processing

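With 1 library per age, none of the values can be checked against animals, and no replicate could be left out. No paired analysis was possible because each age has a single library. At 2 FPKM a 1 kb transcript rests on 17.8 to 43.9 fragments. Of 77 alternative values of 16 summary results, 67 stayed within a set limit and 10 moved. The limit was a factor of 1.5, taken on the count itself or on the fold change behind a median log2 change. The members' median log2 change from d24 to adult, 0.552 as deposited, was thus counted as staying at 0.108 with equal FPKM sums and 0.324 with upper quartiles. Most of the 16 results are counts, which have no direction. Only the members' median log2 changes could turn, and 0 of their values did. With a pseudocount of 1 FPKM, the members' median log2 change was 0.446 from d12 to d16 and 2.57 from d16 to d24, and 2 members were at least 2-fold higher at d16 than at d12 (5.15% of all genes), since low values weigh less. With a fold limit of 4, 0 members were lower in adult testis than at d24 (0.534% of all genes). With each library set to an FPKM sum of 1000000, 2 members were at least 2-fold lower at d16 than at d12 (Prss51 and Prss55, from 1 fragment to none, against 10.2% of all genes), 1 was lower at d24 than at d16 (Prss50, against 25.5%), and 2 had reached 2 FPKM at d12 (Prss42 and Prss50, against 56.2%). With upper quartiles, 1 member was lower at d16 (Prss51, against 8.10% of all genes). With a threshold of 5 FPKM, 1 member first reached it at d16 (Prss44, against 3.78% of all genes) and 1 in adult testis (Prss51, against 1.98%). Of 120 alternative values of the members' single steps, 27 lay outside the counting interval of the main value. The adult to d24 change of Prss43, 0.02 on the log2 scale, was -0.46 with equal FPKM sums and -0.22 with upper quartiles, so its direction depends on the scaling.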

Other observations

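The 4 other genes with a Prss symbol at or above 2 FPKM at d12 are named here after their values were seen. Prss35, a protease-like gene without known proteolytic activity, had 97.5, 71.1, 25.2 and 10.8 FPKM over the 4 ages, above every member at d12 and d16. Prss12, or neurotrypsin, ran from 8.76 to 3.10, 0.838 and 0.645 FPKM, and Prss57, a protease of neutrophils, from 5.55 to 4.52, 2.13 and 2.00 FPKM. These 3 genes were lower at each later age, and Prss50 was the one member lower in adult testis than at d12. Prss23 had 3.34, 3.00, 2.102 and 5.25 FPKM, with the highest value in the adult. Of the 28 other Prss genes, 8 were listed at 0 at every age.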
